A study of Mus musculus with 22 samples.

Results

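Transcripts of the cytosolic ribosomal protein genes were followed in whole brains of aged mice. Members were the rows of the count table whose symbol begins with Rps or Rpl followed by a number and at most a short suffix (a, x, l, al or l1), together with Rplp0, Rplp1, Rplp2 and Rpsa, and without the pseudogene rows named with -ps. This rule reads symbols only, but it was set with earlier results of these data known. It gave 87 of 56748 rows: 30 genes of the small subunit, 43 of the large subunit, 3 of the stalk of the large subunit, and 11 paralogues or retrogenes. Of these, 82 passed the filter on low counts and were tested. The other 5 are paralogues or retrogenes: Rpl10l and Rps12l1 had 0 counts in all 22 libraries, and Rpl32l, Rpl36al and Rpl39l had at most 10 counts in any library.

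All 22 mice were C57BL/6J males, injected from the age of 10 weeks and analysed at 17.5 months. The first of 6 groups, GWCBD30LPS (4 mice), had received 0.7 mg/kg pyridostigmine bromide, an acetylcholinesterase inhibitor, and 200 mg/kg permethrin, a sodium channel insecticide, daily over 10 days. In old age these mice were given 30 mg/kg cannabidiol (CBD) for 28 days and then on alternate days for 2 weeks, and at the end 0.33 mg/kg lipopolysaccharide (LPS), a bacterial inflammatory stimulus, 24 h before the brain was removed. GWCBD30 (4) differed in having PBS for LPS. GWVehLPS (4) and GWVeh (4) had the same chemicals with the vehicle of CBD (5% Tween 80 in PBS), with and without LPS. CtrlVehLPS (3) and CtrlVeh (3) had vehicle for both chemicals and CBD, with and without LPS. The chemicals and CBD were injected intraperitoneally, and CBD without chemical exposure was not analysed here. The labels do not tie equal replicate numbers to a litter, cage or day.

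The ribosome translates every cytosolic mRNA, and each of its proteins is made by a gene of its own that is active in nearly all cells. Mammalian mRNAs for these proteins begin with a run of pyrimidines, the 5′ terminal oligopyrimidine (TOP) motif, through which the mTOR kinase pathway controls their translation together. In the brain, ribosomes lie in cell bodies and also in dendrites, axons and glial processes, where local translation takes place. In a bulk sample, fewer cells of a type and less RNA per cell cannot be told apart.

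Because the TOP motif sits where transcription starts, the starts of a few members were read from RefSeq promoter windows on GRCm38.p6, which held 64 of the 87 members. A tract was counted when a C, followed by pyrimidines only, gave a run of at least 7 bases on the strand of the gene that began within 30 bases of the listed start. Such a tract was present in 45 of 64 members (70.3%) and in 31.2% of 27025 genes. The lines give 30 bases for 8 members to which results are referred later, 5′ to 3′, with the tract in capitals.
Rps2: tataaattgtCCCTTCCgcggcgcctccct
Rpl13: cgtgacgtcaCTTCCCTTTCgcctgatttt
Rpl32l: aaatgaccagCTTCTTCCTTggtgctgcct
Rps9: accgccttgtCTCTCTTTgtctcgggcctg
Rps6: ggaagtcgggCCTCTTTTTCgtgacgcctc
Rps27: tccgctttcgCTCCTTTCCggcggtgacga
Rps10: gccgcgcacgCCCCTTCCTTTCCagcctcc
Rpl7a: ccccacaattCCCTCTTCTTTCTTTCTCCa
These windows lie at chr17:24720080-24720109 (plus strand, Rps2), chr8:123102324-123102353 (plus, Rpl13), chr10:20208429-20208458 (plus, Rpl32l), chr7:3704026-3704055 (plus, Rps9), chr4:86857349-86857378 (minus, Rps6), chr3:90213631-90213660 (minus, Rps27), chr17:27635228-27635257 (minus, Rps10) and chr2:26910785-26910814 (plus, Rpl7a). A listed start can differ from the start in use, as for Rps2, whose tract begins 27 bases after it. The tract was found in genes that were read often, such as Rps2, in Rps10, whose own row was nearly empty, and in the retrogene Rpl32l, whose counts were near 0.

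Further motifs were searched on both strands of the whole 300-base window, and matches of different motifs may overlap. CCGGAAG, the core bound by ETS-family factors such as GABPA, was in 39.1% of members and 9.93% of all genes. AAGATGGC, the core of the YY1 motif, was in 9.38% of members and 3.19% of all genes. TATAAA was in 12.5% of members and 15.7% of all genes. A match describes these letters and does not show binding.

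Library totals ran from 17.2 M to 31.2 M counts. All 7 neuronal markers were counted in every library. CtrlVehLPS replicate 1 stood apart before any result is considered: its 12 cerebellar markers summed to 806 CPM (counts scaled by library size), against 2005 to 3087 CPM over the other libraries, and its 18 pancreatic acinar markers to 398 CPM, against 4.83 to 7.60 CPM. The cerebellar marker Gabra6 had 0 counts in it, and only 5 of the 18 acinar markers were counted in every library. Olfactory bulb markers (13 genes, 11 counted in every library) summed to 193 to 346 CPM in CtrlVehLPS and 126 to 139 CPM in CtrlVeh. Comparisons with CtrlVehLPS are therefore also given without this library, from a fit of the other 21 libraries to 20601 genes.

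The members together took 0.904% to 1.14% of the counts of a library. Levels between genes were compared per kilobase of coding sequence, as the mean CPM over 22 libraries divided by that length. For the 76 core members, those outside the paralogues and retrogenes, the median was 233 CPM per coding kilobase and the quartiles were 185 and 340, and 65 of them were within 2-fold of the median. Rpl41, which encodes the shortest ribosomal protein, was the highest on this scale at 1254 CPM per coding kilobase. Rplp1, an acidic protein of the stalk that recruits translation factors, followed at 901, and Rps14, a protein of the small subunit platform, at 554. This order depends on the divisor, as reads also fall on untranslated bases. Rpl41 has 138 coding bases in a transcript of 509, Rplp1 342 in 499 and Rps14 453 in 597. Most core members stood in a narrow band of levels per coding length, with a short tail of low rows.

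**Figure D1:**
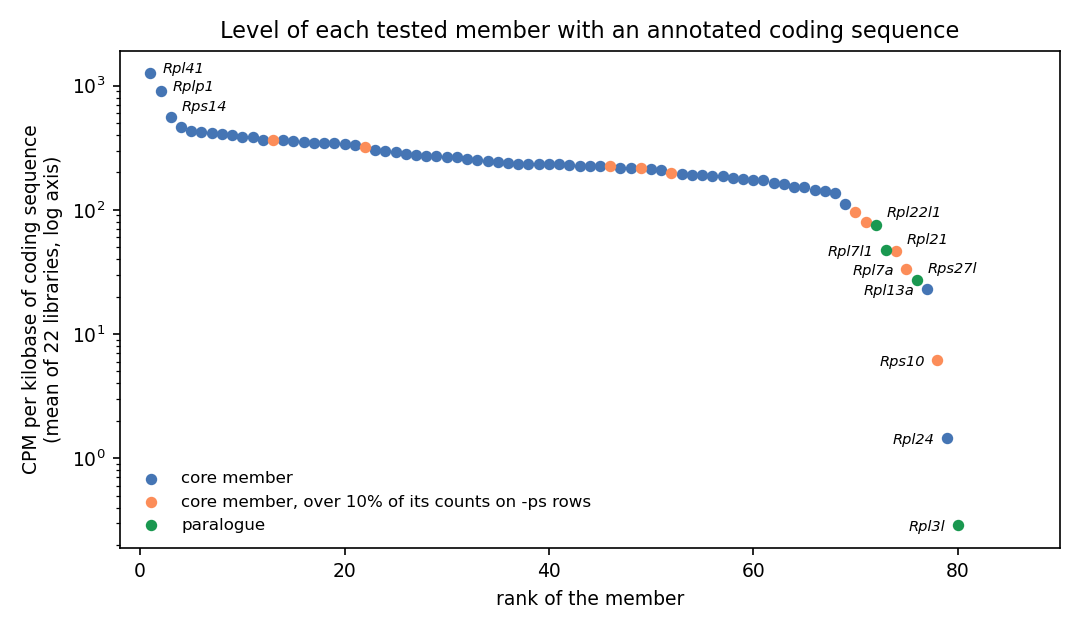
Mean CPM per kilobase of coding sequence over 22 libraries (log axis) against rank, for the 80 tested members with an annotated coding sequence. Blue points are core members, orange points core members with over 10% of the counts of member and -ps rows on the latter, and green points paralogues; most points lie in a flat band, and Rpl13a, Rps10 and Rpl24 are the lowest core members.

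The tail held 3 core members under 10% of that median: Rpl13a at 23.0 CPM per coding kilobase, Rps10 at 6.19 and Rpl24 at 1.45. Rpl24, which lies at the subunit interface, had 3 to 28 counts per library. In GENCODE M21 each of the 3 shares part of its exon bases, on the same strand, with a second annotated gene. These are Gm45713 for Rpl13a (621 of 2114 bases), RPS10-NUDT3 for Rps10 (475 of 2311 bases) and Gm28037 for Rpl24 (484 of 1030 bases), and each partner had 0 counts over all 22 libraries. Such sharing is not particular to them, as 26 members share exon bases on the same strand. Partners of members with many counts, such as Snord68 for Rpl13 (86 bases) and Gm24044 for Rpsa (156 bases), also had 0 counts. For Rps10 the rows named Rps10-ps held 90.1% of the sum of its own and their counts. The part of these annotations in the low counts was not tested, and the levels of these rows are uncertain.

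Across the members, the -ps rows numbered 321 for 64 members and took 4.35% of the summed counts of both, but over 10% for 10 members, among them Rpl17 (71.6%), Rpl21 (59.1%), Rps12 (29.6%), Rpl7a (20.2%) and Rpl9 (12.5%). Exon bases were shared with another annotated gene by 38 members, and by 20 of these with a gene on the opposite strand, such as Vps52 for Rps18. As the strand setting of the counting is not given in the sources used here, such rows are uncertain too.

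Rps27, which encodes a zinc-finger protein of the small subunit (chromosome 3, 90212522 to 90213651, minus strand), was the clearest case of a row that traded counts with a copy. In GWCBD30LPS it had 86.0, 64.2, 77.0 and 34.7 CPM, and in GWCBD30 37.9, 40.8, 42.5 and 32.1 CPM. GWVehLPS had 80.6, 35.2, 30.9 and 54.2 CPM, and GWVeh 41.2, 83.7, 63.3 and 52.6 CPM. CtrlVehLPS had 92.9, 85.3 and 29.6 CPM, and CtrlVeh 45.1, 53.6 and 50.1 CPM. High and low libraries occurred within most groups, and where Rps27 was low the row of the retrogene Rps27rt was high. Summed, both rows lay between 77.2 and 110.4 CPM in every library. The within-group SD on the log2 scale was 0.54 for Rps27 alone and 0.14 for the sum.

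**Figure D2:**
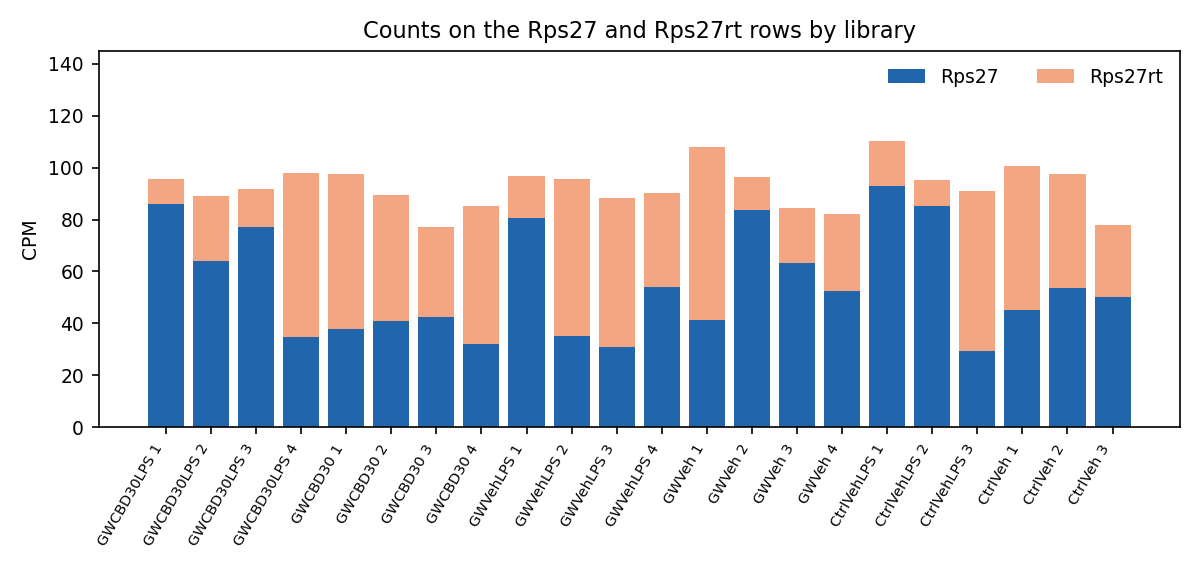
CPM on the Rps27 row (blue) and the Rps27rt row (orange), stacked, in each of 22 libraries. The split differs between replicates of 1 group, while the height of the stacked bar stays between 77.2 and 110.4 CPM.

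Within groups most members varied less than the median gene tested. The median within-group SD of log2 CPM was 0.12 over the 82 members and 0.18 over all genes tested, and 68 members were below the latter. Levels were not matched here, and rows with few counts spread more. Whether members varied less than genes of equal level was not tested. The steadiest member was Rpl7l1, a paralogue of Rpl7 that acts in ribosome assembly, at 0.06. The widest were Rpl3l (0.68), a paralogue of Rpl3 known from striated muscle, Rpl24 (0.56), Rps27 (0.53) and Rps27a (0.40), which encodes ubiquitin fused to a ribosomal protein. Rpl3l had 1 to 18 counts per library and Rpl24 few more, so counting error is large in both. Across 22 libraries, with group means removed, 67 of 82 members correlated above 0.5 with the mean of the others (median 0.76), and Rpl7l1 (-0.14) and Rps10 (-0.02) were the 2 with a negative value. Libraries share depth and scaling in this correlation, so it is given as a description.

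The shared movement was seen between libraries of the same group as well as between groups. Group means of the member deviation ran from -0.09 in GWCBD30 to 0.10 in CtrlVehLPS, and the pooled within-group SD was 0.10. Averaged over the members, the deviation from their own 22-library means was 0.04, -0.05, 0.06 and -0.04 in GWCBD30LPS and -0.00, -0.03, -0.17 and -0.16 in GWCBD30, on the log2 CPM scale. GWVehLPS had 0.08, 0.10, -0.10 and -0.02, and GWVeh 0.23, 0.13, -0.04 and -0.12. CtrlVehLPS had 0.24, 0.03 and 0.03, and CtrlVeh 0.00, -0.09 and -0.13. CtrlVehLPS replicate 1 and GWVeh replicate 1 were the highest, with 77 and 79 of 82 members above their own mean. GWVeh spanned nearly the whole range of the study, since 79, 74, 21 and 8 members were above their mean in its 4 libraries. Of the 3 pairs with and without LPS, CtrlVehLPS and CtrlVeh did not overlap, while both exposed pairs did.

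**Figure D3:**
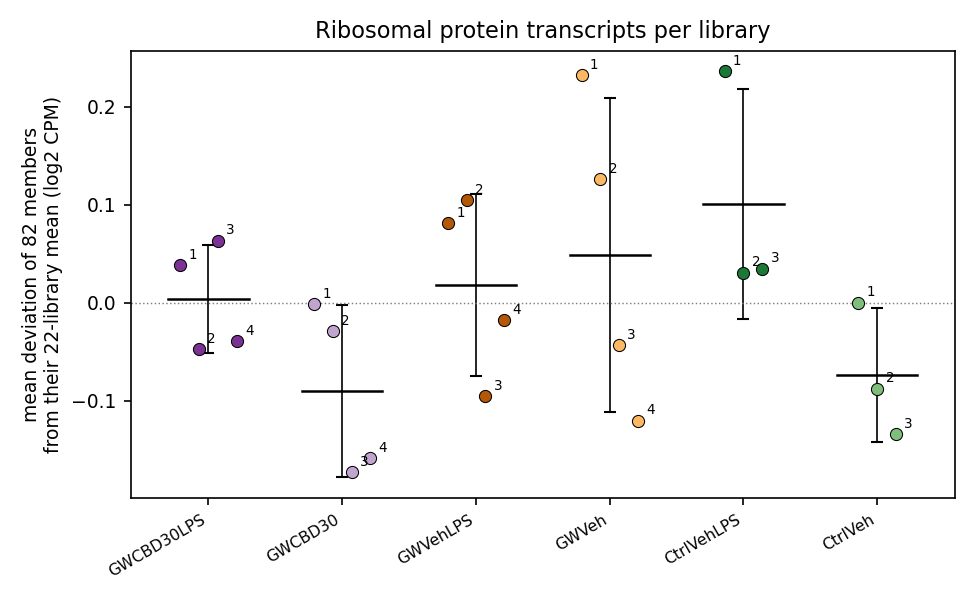
Mean deviation of the 82 members from their own 22-library means (log2 CPM) for each library, labelled by replicate number, with group mean (bar) and SD (error bar). GWVeh and CtrlVehLPS each hold 1 library near 0.23 to 0.24, and the spread within GWVeh covers most of the range of all groups.

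Other transcripts moved along with these library differences in some groups. Oligodendrocyte markers (5 of 5 counted in every library) summed to 6544, 6222, 5304 and 4807 CPM in GWVeh replicates 1 to 4, the same order as their member deviations. In GWCBD30 they summed to 5039, 5142, 4508 and 4467 CPM. Red blood cell markers (5 of 5) summed to 762 CPM in GWVeh replicate 1, against 108 to 356 CPM in the other 21 libraries. The 77 mitochondrial ribosomal proteins deviated by 0.12 in CtrlVehLPS replicate 1 and by 0.11 in GWVeh replicate 1, and 1120 non-member genes with a coding sequence of at most 600 bp and at least 10 CPM by 0.08 and 0.09. The 9103 longer genes deviated by -0.03 and -0.01 in these 2 libraries. The order was not shared by every library: GWVehLPS replicate 2 had the highest short gene deviation (0.13) and oligodendrocyte sum (7081 CPM) with a member deviation of 0.10. In both control groups the order of oligodendrocyte markers and members was opposite. These markers summed to 4738, 5724 and 5540 CPM in CtrlVehLPS replicates 1 to 3 and to 4997, 5023 and 5580 CPM in CtrlVeh replicates 1 to 3. The part of any of these in the member values was not tested.

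LPS in mice without chemical exposure gave the only calls among the members. Rps2, which encodes a protein at the mRNA entry of the small subunit, and Rpl9, of the large subunit near the stalk, rose in CtrlVehLPS relative to CtrlVeh. The members as a group had a median log2 fold change of 0.19 (1.14-fold), with 79 of 82 above 0. Over all 20026 genes tested the median was -0.00, and 49.2% were above 0. Each change is small, and the groups hold 3 libraries each.

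Rps2 (chromosome 17, 24718116 to 24721929, plus strand) had 251, 214 and 233 CPM in CtrlVehLPS and 187, 171 and 182 CPM in CtrlVeh. All 3 CtrlVehLPS libraries were above all 3 CtrlVeh libraries. It averaged 233 ± 18.3 CPM in CtrlVehLPS and 180.0 ± 8.31 CPM in CtrlVeh (SD over 3 libraries). The log2 fold change was 0.37 with an SE of 0.09, at an adjusted p of 0.0406 by edgeR's quasi-likelihood test with Benjamini-Hochberg adjustment over all genes tested. Values written later as a change ± an error are log2 fold changes with their SE from this test. Rpl9 (chromosome 5, 65388364 to 65391444, minus strand) had 242, 223 and 234 CPM in CtrlVehLPS and 182, 193 and 185 CPM in CtrlVeh. These groups did not overlap either. Its change was 0.32 ± 0.08 (adjusted p = 0.0413). Rps2 and Rpl9 were the 2 of 82 members past the adjusted threshold of 0.05 (2 higher, 0 lower), where 0.414% of all genes were called higher, 0.0799% lower and 0.494% in either direction.

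Both calls ended when any of 5 single libraries was left out. Without CtrlVehLPS replicate 1, Rps2 had a log2 fold change of 0.31 (adjusted p = 0.158) and Rpl9 of 0.29 (adjusted p = 0.126). The same held without CtrlVeh replicate 1, 2 or 3 or CtrlVehLPS replicate 3, with the sign kept and an adjusted p up to 0.237 over these 5 omissions. Rpl9 also lost its call when its -ps rows were added to it (0.27, adjusted p = 0.0777).

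The next members by p were Rps14 (0.33 ± 0.08, adjusted p = 0.0651) and Rpl13, of the large subunit (0.30 ± 0.08, adjusted p = 0.0817), which did not pass. Rps14 passed with DESeq2 (adjusted p = 0.0219), without a filter on low counts (0.00195), with the replicate number as a block (0.0330) and without CtrlVehLPS replicate 2 (0.0427). Rps14 had 277, 260.5 and 307 CPM in CtrlVehLPS and 231, 220.2 and 221 CPM in CtrlVeh. For Rpl13 the values were 265, 239.7 and 262 CPM in CtrlVehLPS and 211, 200.1 and 213 CPM in CtrlVeh. In both genes the groups did not overlap. In all, 32 of 82 members (39.0%) were higher in every CtrlVehLPS library than in any CtrlVeh library and 0 were lower in every one, where 9.2% and 8.13% of all genes were so. At an unadjusted p under 0.05 there were 37 members, all above 0, and 12.2% of all genes. Because the members moved together between libraries, such counts, here and below, are not so many separate results. Rps14 had 0.34 (adjusted p = 0.0985) and Rpl13 0.27 (adjusted p = 0.202) without CtrlVehLPS replicate 1. In that fit 33 members were higher without overlap and 2 lower, where 16.1% and 15.5% of all genes were. There 20 members had an unadjusted p under 0.05, and 11.7% of all genes did.

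**Figure D4:**
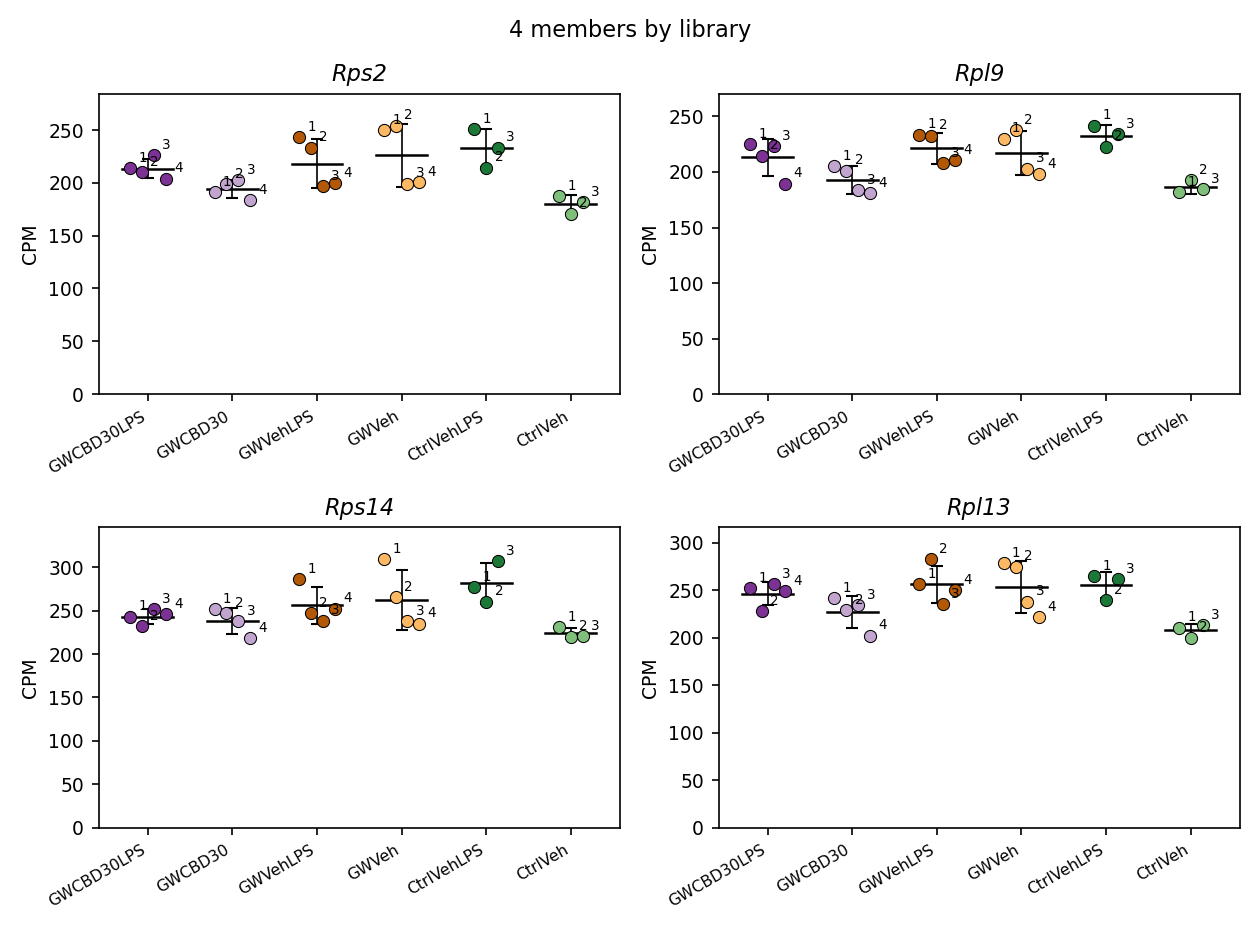
CPM of Rps2, Rpl9, Rps14 and Rpl13 in each library (points, labelled by replicate number) by group, with group mean (bar) and SD (error bar). CtrlVehLPS lies above CtrlVeh without overlap in all 4 panels, and GWVeh splits into replicates 1 and 2 above replicates 3 and 4.

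By role, the small subunit had a median log2 fold change of 0.21 in CtrlVehLPS relative to CtrlVeh (30 of 30 above 0), and the large subunit with its stalk 0.17 (44 of 46). Rpsa, a small subunit protein also known as the laminin receptor precursor, had 406, 385 and 404 CPM in CtrlVehLPS and 339, 307 and 311 CPM in CtrlVeh (0.32 ± 0.09, adjusted p = 0.0825), without overlap. Rps6, the substrate of S6 kinase, had a log2 fold change of 0.19 ± 0.08 (adjusted p = 0.309). Among the stalk genes, Rplp0 had 0.22 ± 0.08, Rplp1 0.29 ± 0.09 and Rplp2 0.19 ± 0.12, with adjusted p of 0.241, 0.128 and 0.547. No stalk gene passed, and Rplp2 alone of them overlapped between the groups. The small subunit had a median of 0.16 (27 of 30 above 0) and the large subunit with its stalk 0.11 (38 of 46) without CtrlVehLPS replicate 1. In that fit Rpsa had 0.31 ± 0.10, Rps6 0.16 ± 0.09, Rplp0 0.23 ± 0.09, Rplp1 0.25 ± 0.09 and Rplp2 0.14 ± 0.13.

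The paralogues and retrogenes were closer to 0 by their median, but not in every row. Their 6 tested rows had a median of 0.04 in this comparison, and the 9 core partners of the paralogues one of 0.16. Rpl22l1, the paralogue of Rpl22, had -0.00 ± 0.10, Rpl7l1 0.02 ± 0.08 and Rps27l, a paralogue of Rps27 known as a p53 target, 0.02 ± 0.15. Rps4l was higher at 0.19 ± 0.13, as was Rpl3l, with few counts, at 0.52 ± 0.68. Rpl10, the core protein of the P-site region whose paralogue Rpl10l was at 0, had 0.26 ± 0.08 (adjusted p = 0.120). The fit without CtrlVehLPS replicate 1 gave medians of -0.01 for the paralogues and retrogenes and 0.11 for the core partners, and there Rpl22l1 had -0.04, Rpl7l1 0.02, Rps27l -0.07 and Rpl10 0.24. Whether paralogues and core genes differed was not tested.

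The size of the shift depended on the libraries and covariates in the fit. Without CtrlVehLPS replicate 1 the median of the members was 0.13, and 68 of 82 were above 0. Fitting scores of the bulb and cerebellar markers as covariates also gave 0.13, and 0 members passed. In that fit Rps2 had a log2 fold change of 0.39 (adjusted p = 0.327) and Rpl9 of 0.40 (adjusted p = 0.197), no smaller than without the covariates. The alternatives that kept every library, other than the Rps27 sum, gave member medians of 0.13 to 0.20. A fit with the mean deviation of the short non-member genes as a covariate was among them. Microglial markers (9 of 9 counted in every library) summed to 401 to 428 CPM in CtrlVehLPS and 245 to 266 CPM in CtrlVeh, and their part in the member values was not tested. The short non-member genes had a median of 0.04 (722 of 1120 above 0). Mitochondrial ribosomal proteins had one of 0.06 (53 of 77 above 0), and of 0.01 (43 of 77) without CtrlVehLPS replicate 1.

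LPS in exposed mice on vehicle moved the members little. The median log2 fold change of GWVehLPS relative to GWVeh was -0.03, with 27 of 82 above 0, where 48.6% of all genes were. By edgeR 0 members passed, where 0.939% of all genes did (0.829% higher and 0.11% lower), and DESeq2 called 0. At an unadjusted p under 0.05 there were 0 members, and 10.4% of all genes. The sign of this median rested on 1 library: without GWVeh replicate 1 it was 0.04, with 58 of 82 above 0. The smallest p belonged to Rpl35a, of the large subunit, with 55.6, 58.0, 53.7 and 53.5 CPM in GWVehLPS and 74.8, 59.3, 59.6 and 59.4 CPM in GWVeh (-0.20 ± 0.10, adjusted p = 0.513). All GWVehLPS values were below all GWVeh values, the only such member, and 0 members were higher in this way, where 2.37% and 3.5% of all genes were. Rpl28 (0.14 ± 0.08, adjusted p = 0.610) and Rpl12, a protein of the stalk base (-0.10 ± 0.07, adjusted p = 0.692), came next.

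LPS in exposed mice on CBD gave a median of 0.09 in GWCBD30LPS relative to GWCBD30, with 70 of 82 above 0, where 49% of all genes were. Again 0 members passed by edgeR (0.00499% of all genes) and 0 by DESeq2, with 6 (8.22% of all genes) at an unadjusted p under 0.05. Rpl24 led by p, with 0.358, 0.440, 0.573 and 0.556 CPM in GWCBD30LPS and 1.18, 0.786, 0.826 and 1.37 CPM in GWCBD30 (-1.11 ± 0.42, adjusted p = 0.492). The groups did not overlap, but the row is one of the uncertain ones above. Rpl6l, a retrogene (0.42 ± 0.17, adjusted p = 0.530), and Rps15, near the decoding centre (0.18 ± 0.08, adjusted p = 0.545), followed. Without overlap, 7 members were higher in GWCBD30LPS and 1 lower, where 3.39% and 2.85% of all genes were.

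Oligodendrocyte markers summed to 5516 to 6376 CPM in GWCBD30LPS and 4467 to 5142 CPM in GWCBD30, and short non-member genes had a median of 0.04. When the mean deviation of the short genes, an alternative chosen with the data in hand, was fitted as a covariate, the member median was 0.02.

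Chemical exposure without LPS was compared as GWVeh against CtrlVeh. The median of the members was 0.14 (1.10-fold), with 76 of 82 above 0, where 50.2% of all genes were. An unadjusted p under 0.05 was reached by 28 members, all of them higher, and by 8.8% of all genes. By edgeR 0 members passed, as did 0 of all 20026 genes (0%), and DESeq2 called 0. Rps2 had 249.7, 254, 199 and 201 CPM in GWVeh and 187, 171 and 182 CPM in CtrlVeh (0.33 ± 0.08, adjusted p = 0.390). Rpl13 had 279, 275, 238 and 222 CPM in GWVeh and 211, 200.1 and 213 CPM in CtrlVeh (0.28 ± 0.08, adjusted p = 0.390). In both genes replicates 1 and 2 of GWVeh were the high ones, and even its lower pair stayed above CtrlVeh.

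Non-overlapping members numbered 9 higher and 1 lower, where 4.8% and 4.59% of all genes were so. Without GWVeh replicate 1 the median was 0.08, with 66 of 82 above 0. It was 0.10 with the short gene deviation as a covariate. Oligodendrocyte markers ranged from 4807 to 6544 CPM in GWVeh and from 4997 to 5580 CPM in CtrlVeh.

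Under LPS, exposure was compared as GWVehLPS against CtrlVehLPS, and the median was -0.06, with 18 of 82 above 0, where 50.5% of all genes were. With edgeR 0 passed (0.00499% of all genes), DESeq2 called 0, and 3 (7.73% of all genes) had an unadjusted p under 0.05. Without CtrlVehLPS replicate 1 the median was 0.00, with 42 of 82 above 0. Rpl30, of the large subunit, had 67.0, 49.5, 49.7 and 50.7 CPM in GWVehLPS and 109, 78.5 and 86.4 CPM in CtrlVehLPS (-0.75 ± 0.24, adjusted p = 0.461). It was the single member without overlap, where 2.57% of all genes were lower and 2.84% higher in this way. The row Rpl30-ps10 went the other way, with 4.06 to 8.78 CPM in GWVehLPS and 0.887 to 1.69 CPM in CtrlVehLPS. Summed, both rows had 56.7 to 71.1 CPM in GWVehLPS and 80.2 to 109.7 CPM in CtrlVehLPS, still without overlap. Rps27a had 54.8, 56.5, 49.6 and 71.1 CPM in GWVehLPS and 127, 96.0 and 46.8 CPM in CtrlVehLPS (-0.64 ± 0.30, adjusted p = 0.642). CtrlVehLPS replicate 3 lay below all GWVehLPS values there, while the other 2 lay far above. Rpl12 had -0.16 ± 0.08 (adjusted p = 0.646). In the fit without CtrlVehLPS replicate 1, Rpl30 had -0.60 ± 0.27, still without overlap, Rps27a -0.30 ± 0.32 and Rpl12 -0.12 ± 0.09. Endothelial markers (5 of 5 counted in every library) summed to 118 to 135 CPM in GWVehLPS and 98.7 to 113 CPM in CtrlVehLPS, and their part was not tested.

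The difference between the LPS response of exposed vehicle mice and that of controls was tested as an interaction. Its median over the members was -0.21, with 77 of 82 below 0 and 30 of 30 small subunit members among them, where 50.1% of all genes were above 0. By edgeR 0 members passed (0% of all genes), DESeq2 called 0, and 25 had an unadjusted p under 0.05, where 8.43% of all genes did. Rps2 (-0.42 ± 0.12, adjusted p = 0.299), Rps14 (-0.36 ± 0.11, adjusted p = 0.351) and Rpl35a (-0.52 ± 0.15, adjusted p = 0.351) had the smallest p. When CtrlVehLPS replicate 1 was left out these were -0.36, -0.37 and -0.45 for Rps2, Rps14 and Rpl35a, and 14 members had an unadjusted p under 0.05. The median was -0.15 without CtrlVehLPS replicate 1 and -0.14 without GWVeh replicate 1, the 2 libraries with the highest member levels.

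**Figure D5:**
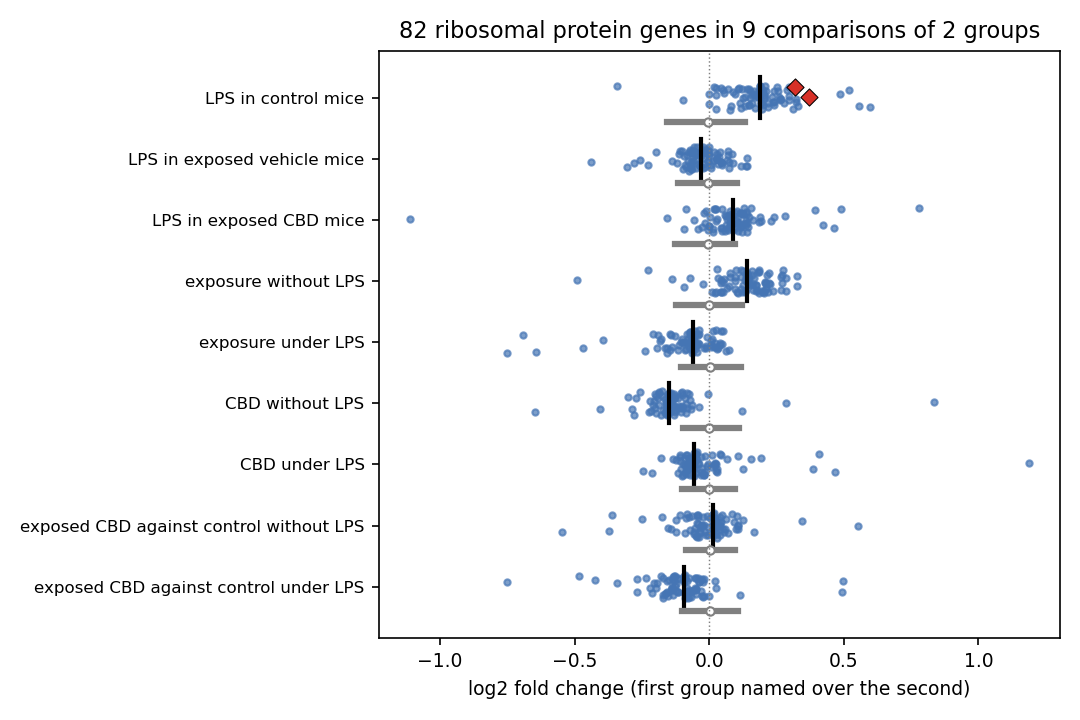
Log2 fold change of each of the 82 tested members (points) in 9 comparisons of 2 groups, with the member median (black bar) and, under each row, the median and quartiles of all 20026 genes (white point and grey bar). Red diamonds mark Rps2 and Rpl9, which passed; the members lie right of 0 for LPS in controls and for exposure without LPS, and left of 0 for CBD without LPS.

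CBD in exposed mice without LPS gave the reverse sign. In GWCBD30 relative to GWVeh the median was -0.15, with 79 of 82 below 0, where 50.1% of all genes were above 0. An unadjusted p under 0.05 was reached by 30 members, all lower, and by 6.43% of all genes. Yet 0 members passed by edgeR (0% of all genes) and 0 by DESeq2. Rpl32, of the large subunit, had 87.6, 95.9, 88.0 and 81.5 CPM in GWCBD30 and 119, 117, 96.1 and 89.8 CPM in GWVeh (-0.26 ± 0.08, adjusted p = 0.752). Rps9, a small subunit protein near the mRNA entry, had 159, 152, 142 and 138 CPM in GWCBD30 and 196, 187, 153 and 149.6 CPM in GWVeh (-0.22 ± 0.07, adjusted p = 0.752). The groups overlapped in both genes, because GWVeh replicates 3 and 4 were close to GWCBD30. Rps2 followed (-0.22 ± 0.08, adjusted p = 0.752).

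Only 1 member was higher and 1 lower without overlap, where 1.84% and 1.7% of all genes were. The higher one was Rpl24 and the lower one Rpl35a. Short non-member genes shared this direction, with a median of -0.07 and 859 of 1120 below 0, as did the mitochondrial ribosomal proteins (-0.09, 59 of 77 below 0, 0 past the threshold). With the short gene deviation as a covariate the member median was -0.05. Without GWVeh replicate 1 it was -0.09, with 78 of 82 below 0. As this comparison and that of exposure without LPS share the GWVeh libraries, their opposite signs are not independent of each other.

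Under LPS, the CBD comparison was GWCBD30LPS against GWVehLPS. GWCBD30LPS relative to GWVehLPS had a median of -0.05, with 20 of 82 above 0, where 50.2% of all genes were. By edgeR 0 passed (0.24% of all genes, 0.015% higher and 0.225% lower), DESeq2 called 0, and 3 (7.1% of all genes) had an unadjusted p under 0.05. Rpl7a, of the large subunit, had 35.9, 25.2, 38.6 and 32.7 CPM in GWCBD30LPS and 22.7, 21.1, 29.1 and 23.3 CPM in GWVehLPS (0.47 ± 0.21, adjusted p = 0.666). Rpl3l had 0.585, 0.831, 0.535 and 0.167 CPM in GWCBD30LPS and 0.280, 0.236, 0.092 and 0.320 CPM in GWVehLPS (1.19 ± 0.56, adjusted p = 0.676), near the level of 3 counts per library. Rpl22l1 had 25.3, 24.0, 27.1 and 24.3 CPM in GWCBD30LPS and 30.1, 29.4, 27.3 and 27.1 CPM in GWVehLPS (-0.18 ± 0.09, adjusted p = 0.695). Of these 3, only Rpl22l1 did not overlap, and with Rps7 it made 2 members lower and 0 higher in every library, where 2.5% and 1.78% of all genes were. Microglial markers summed to 302 to 348 CPM in GWCBD30LPS and 387 to 481 CPM in GWVehLPS, and endothelial markers to 91.2 to 96.1 CPM in GWCBD30LPS and 118 to 135 CPM in GWVehLPS. Neither overlapped between the groups, and their part in the member values was not tested. Without GWVehLPS replicate 2, the median was -0.01.

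The CBD interaction, the LPS response of exposed CBD mice less that of exposed vehicle mice, had a median of 0.10, with 74 of 82 above 0, where 50.2% of all genes were. Here 0 members passed by edgeR (0.0449% of all genes) and 0 by DESeq2, with 2 (5.69% of all genes) at an unadjusted p under 0.05. Rpl7a (0.77 ± 0.30, adjusted p = 0.776), Rpl30 (0.70 ± 0.32, adjusted p = 0.855) and Rps27 (1.03 ± 0.51, adjusted p = 0.882) had the smallest p, and all 3 rank among the widest rows within groups. The median was 0.04 without GWVeh replicate 1 and 0.03 with the short gene deviation as a covariate.

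Exposed mice on CBD were also set against unexposed controls. Without LPS, GWCBD30 relative to CtrlVeh had a median of 0.01, with 43 of 82 above 0, where 51.3% of all genes were. An unadjusted p under 0.05 was reached by 0 members and 3.1% of all genes, and 0 passed by edgeR (0% of all genes) or DESeq2. Rpl21, of the large subunit, had 20.3, 19.7, 17.7 and 19.99 CPM in GWCBD30 and 27.3, 22.2 and 25.5 CPM in CtrlVeh (-0.36 ± 0.18, adjusted p = 0.9998), without overlap. Rps27a (-0.55 ± 0.30) and Rpl13 (0.13 ± 0.08) followed, with the same adjusted p. Non-overlapping members numbered 1 higher and 3 lower, where 2.84% and 2.73% of all genes were so. A median near 0 does not show that these groups were alike.

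Under LPS, GWCBD30LPS relative to CtrlVehLPS had a median of -0.09, with 6 of 82 above 0, where 50.9% of all genes were. An unadjusted p under 0.05 was reached by 14 members and 6.23% of all genes, but 0 passed by edgeR (0.0699% of all genes) or DESeq2. Rps14 had 243, 232, 252 and 246 CPM in GWCBD30LPS and 277, 260.5 and 307 CPM in CtrlVehLPS (-0.21 ± 0.08, adjusted p = 0.592), without overlap. Rps18, of the small subunit head (-0.23 ± 0.10, adjusted p = 0.702), and Rps27a (-0.75 ± 0.30, adjusted p = 0.705) overlapped. Non-overlapping members numbered 1 higher and 6 lower, where 2.89% and 3.65% of all genes were so. Without CtrlVehLPS replicate 1 the median was -0.04, with 60 of 82 below 0 and 4 members at an unadjusted p under 0.05. In that fit Rps14 had -0.22 ± 0.09, Rps18 -0.13 ± 0.10 and Rps27a -0.41 ± 0.32, and 4 members were higher and 9 lower without overlap, where 8.4% and 8.61% of all genes were. Microglial markers summed to 302 to 348 CPM in GWCBD30LPS and 401 to 428 CPM in CtrlVehLPS, and endothelial markers to 91.2 to 96.1 CPM in GWCBD30LPS and 98.7 to 113 CPM in CtrlVehLPS. Neither overlapped, and their part in the member values was not tested.

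Related genes outside the symbol rule were read from the same fit, and 0 of them passed in any comparison. Rack1, a scaffold on the small subunit, had 0.20 ± 0.07 for LPS in controls (adjusted p = 0.188). TOP-class translation factors had a median of 0.08 in that comparison (14 of 18 above 0). Among them Eef1g, a subunit of elongation factor 1, had 0.22 ± 0.07 (adjusted p = 0.181), and Pabpc1, the poly(A)-binding protein, had 0.22 ± 0.06 for LPS in exposed vehicle mice (adjusted p = 0.0867).

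Genes that make or regulate ribosomes stayed near 0 as lists. For LPS in controls the 32 ribosome biogenesis genes had a median of 0.01 (19 above 0), and for CBD without LPS one of -0.02. Nop14, of the small subunit processome, had -0.33 ± 0.11 for LPS in controls (adjusted p = 0.194), and Nolc1, a nucleolar phosphoprotein, -0.17 ± 0.06 for CBD without LPS (adjusted p = 0.752). The 28 genes of mTOR and MYC control had medians of 0.01 in both. Akt1s1, an mTORC1 inhibitor, had 0.26 ± 0.08 for exposure without LPS (adjusted p = 0.440), and Ddit4, an inducible mTORC1 inhibitor, -0.35 ± 0.10 for exposure under LPS (adjusted p = 0.384). Of the 77 mitochondrial ribosomal proteins, Mrpl36 had -0.34 ± 0.11 in GWCBD30LPS relative to CtrlVehLPS (adjusted p = 0.448) and Mrps9 -0.22 ± 0.08 for LPS in exposed vehicle mice (adjusted p = 0.198). Without CtrlVehLPS replicate 1, Rack1 had 0.19 ± 0.07, Eef1g 0.21 ± 0.08 and Nop14 -0.27 ± 0.13 for LPS in controls, Ddit4 -0.26 ± 0.11 for exposure under LPS and Mrpl36 -0.31 ± 0.13 in GWCBD30LPS relative to CtrlVehLPS. The medians for LPS in controls were then 0.04 for the TOP-class factors, -0.03 for ribosome biogenesis and 0.03 for mTOR and MYC control.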

How the data were processed

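The authors deposited whole-number read counts per gene, not normalized, for 22 poly(A)-enriched, stranded libraries (RNA integrity number at least 8.5, paired reads of 150 bp); per the submitters' processing notes the build is GRCm38 (mm10). The aligner, counter, strand setting and gene models are not stated in the labels or file header. The members, gene lists and tests were chosen with earlier results of these data known. Coordinates and coding lengths come from GENCODE M21 and promoter windows from RefSeq.

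Counts were filtered by filterByExpr (20026 genes), scaled by TMM and fitted with edgeR 4.0.16 in R 4.3.3 as 6 group means, robust quasi-likelihood, with two-sided tests adjusted by Benjamini-Hochberg over all genes tested and a threshold of 0.05. SE is the log2 fold change divided by the root of F. CPM uses the TMM-scaled size, and 3 counts in a library equal 0.0975 to 0.176 CPM. Scripts were tested on simulated data. Named members were those past the threshold, otherwise the 3 with the smallest p per comparison, with paralogues, their core partners, stalk genes, Rpsa, Rps6, Rps27a, Rps2, Rpl9 and Rps14; of each other list, the 2 genes with the smallest p. A few of the genes chosen in this way are left out of the text. Rpl13, Rpl13a, Rps10, Rpl24 and Rpl41 in the comparisons of levels were chosen after their values were seen.

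Alternatives were RLE scaling, TMM without the members, no filter, DESeq2 1.42.0, a replicate block, covariates from bulb and cerebellar markers, addition of -ps rows and leaving out each library; the short gene covariate and the sum of Rps27 with Rps27rt were added after seeing the data. Nothing in the labels says more of the source of replicates than separate mice, and intervals by SD or SE cover the spread between these libraries. The labels give no batch.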

Additional observations from a re-analysis of the deposited data

Results flagged for a closer look

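In groups of 4 libraries, 8 values were flagged in 164 tests, 1 test per group for each named member or member summary. A flagged value lay far from the other 3, by a gap of more than 0.829 of the range of the group. The 8 flags are about as many as the 1 in 20 tests that chance gives. GWVeh replicate 1, the library with the highest red blood cell markers, held 3 of them: Rps27a had 114.9 CPM, against 47.8 to 58.1 CPM in the other GWVeh libraries, Rpl35a 74.8 CPM, against 59.3 to 59.6 CPM, and Rpl7a 33.5 CPM, against 27.5 to 27.8 CPM. GWCBD30LPS replicate 2 held 2 low values, Rpl28 at 89.2 CPM, against 104 to 107 CPM, and Rpl35a at 46.7 CPM, against 58.3 to 60.05 CPM. Rpl30 had 67.0 CPM in GWVehLPS replicate 1, against 49.5 to 50.7 CPM. Rps27a had 50.2 CPM in GWCBD30LPS replicate 4, against 54.4 to 55.1 CPM. Rpl12 had 108 CPM in GWCBD30 replicate 3, against 109.9 to 110.0 CPM, so its range was very narrow.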

How the results depend on the processing

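For LPS in control mice, 2 members passed; 11 passed with no filter on low counts, 5 with DESeq2, 1 with the -ps rows added and 0 with bulb and cerebellar scores as covariates, and leaving out 1 library gave 0 to 3. For exposure without LPS, where 0 passed, 2 passed with no filter and leaving out 1 library gave 0 to 1; for the exposure interaction 2 passed with no filter, both lower. Apart from the replicate block, no other count moved by over 1.5 times under any alternative run. The causes were not tested.

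Same-numbered libraries did not track each other closely (correlations of their deviations from -0.06 to 0.09, none over 0.1), which does not exclude a pairing. With the replicate block 4 members passed for LPS in controls, and the count stayed 0 in the other comparisons. Over all genes this block moved calls from 99 to 124 for LPS in controls and 188 to 223 for LPS in exposed vehicle mice. For LPS in exposed CBD mice they went from 1 to 16, and for exposed CBD mice against controls under LPS from 14 to 6.

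Leaving out 1 library moved the median of the members between 0.13 and 0.24 for LPS in controls, between 0.08 and 0.20 for exposure without LPS, and between -0.20 and -0.09 for CBD without LPS. Medians changed sign for LPS in exposed vehicle mice (0.04 without GWVeh replicate 1), exposure under LPS (0.00 without CtrlVehLPS replicate 1) and exposed CBD mice against controls without LPS (-0.02 without CtrlVeh replicate 3). Members near 0 also changed sign, all without a call. For LPS in exposed vehicle mice, leaving out 1 library gave Rps14 log2 fold changes of -0.0903 to 0.0572, above 0 without GWVeh replicate 1 or GWVehLPS replicate 3 (0.000175). It gave Rps2 -0.106 to 0.0110, above 0 without GWVeh replicate 1 or 2, and Rpl9 -0.0140 to 0.0731, below 0 without GWVeh replicate 3 or 4. Rps27 summed with Rps27rt had 0.00245 in that comparison. For LPS in exposed CBD mice, Rps14 had -0.0125 to 0.0541, below 0 without GWCBD30 replicate 4, and -0.00600 with the short gene covariate. For CBD under LPS, Rps2 had -0.0780 to 0.0249, above 0 without GWVehLPS replicate 1 or 2.

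With 3 or 4 libraries a group, changes of about 1.1-fold in single genes were within the spread between libraries in most comparisons, and low rows such as Rpl24 and Rpl3l are limited by counting error.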
